A study of Mus musculus with 18 samples.

Results

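Mouse CD4 T cells cultured under the treatment labelled Tfh_5 were compared with cells cultured under Tfh_A, in libraries whose genotype label is CD4Cre- Maf fl/fl (written Tfh5, TfhA and Cre-negative below). The comparison was made over all expressed genes and used 6 of the 18 libraries of the series, 3 per treatment, chosen by their labels alone. By its label the genotype has floxed alleles of Maf and lacks CD4Cre, the T cell transgene that deletes floxed sequence, but Maf RNA went against that label, as given below. Naive CD4 T cells were stimulated with antibodies to CD3 and CD28 fixed to the plate. After 3.5 days they were sorted by flow cytometry, and libraries reading the 3′ end of mRNA were made from 50 ng of RNA. The other 12 libraries are Cre-negative Tfh1 cells (treatment label Tfh_1) and Cre-positive cells, with the label CD4Cre+ Maf fl/fl, under all 3 treatments. The labels name the treatments without their contents and do not give the gate of the sort. Replicates carry the numbers 2, 4 and 5 in each Cre-negative treatment and 1, 3 and 6 in each Cre-positive one. No label ties a number to an animal, and the main test did not pair libraries by number. Every p-value therefore rests on a spread between libraries that may be technical, and that spread was estimated over all 18 libraries of the 6 groups.

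Helper T cells take on specialised programs as they respond to antigen and cytokines. T follicular helper (Tfh) cells help B cells and carry the costimulatory receptor ICOS. Th17 cells secrete IL-17, and TGF-β together with IL-6 is the textbook signal for them in mice. Th1 cells follow the factor T-bet and respond to interferon-γ and IL-12. Maf encodes c-Maf, a transcription factor of activated T cells, and the title of the series places it with TGF-β at the choice between Tfh and Th17 fates.

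Maf RNA was almost absent from the libraries used here, against what the label Cre-negative implies. The 3 TfhA libraries ranged from 0 to 0.270 CPM and the 3 Tfh5 libraries were all at 0. CPM, the usual depth-scaled counts of RNA-seq, were computed with the library size times its TMM factor, a correction for differences in composition. The libraries labelled Cre-positive held 5.03 to 22.8 CPM in TfhA and 319 to 397 in Tfh5, so Maf ran against the genotype labels. The labels do not say which part of Maf is floxed. Where the 3′ reads of Maf lie relative to the floxed part was not tested. Whether the genotype labels were exchanged was not tested. The genotype of these libraries and every direction between labels depend on it, and groups are named by their labels throughout. Total counts of the 6 libraries were 6424874 to 8219189, and 11928 to 12588 genes were above 0 in TfhA and 10242 to 12673 in Tfh5. Tfh5 replicate 5 had the fewest, and on principal component 2 it sat at -119, with the other replicates of its group at -45.3 and -33.2. The 2 most abundant identifiers, which have no symbol in the tables used here, took 19.7% to 33.7% of the counts in TfhA and 36.8% to 43.0% in Tfh5, without overlap. The T cell genes Cd3e, Cd3d, Trac and Lck were detected in both groups, at means of 78.1 and 62.7, 506 and 846, 396 and 523, and 225 and 326 CPM in TfhA and Tfh5. Cd4 itself was lower in Tfh5, as described below.

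Of 11735 tested genes, 596 (5.08%) passed edgeR's quasi-likelihood test at an adjusted p under 0.05. Tfh5 was higher for 372 (3.17% of those tested) and lower for 224 (1.91%). The genes that fell did so by more, with a median log2 fold change of -1.76 against 1.22 for those that rose, while the median over all tested genes was -0.09. All tested genes were skewed the same way, with a 5th percentile of -3.721 and a 95th percentile of 2.155. More than 2-fold changes were found for 249 of the 372 and 181 of the 224. The 3 Tfh5 libraries lay wholly above or below the 3 TfhA libraries for 360 of the genes that rose and 223 of those that fell. Over all tested genes the Tfh5 libraries lay wholly above for 10.7% and wholly below for 13.9%. The count of calls was 471 in a fit of the 6 libraries alone and 360 without TfhA replicate 5. Scaling by plain library size, with no TMM factors, called 953 genes, of which 143 were higher and 810 lower. That scaling moved the median of all tested genes to -0.64.

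**Figure D1:**
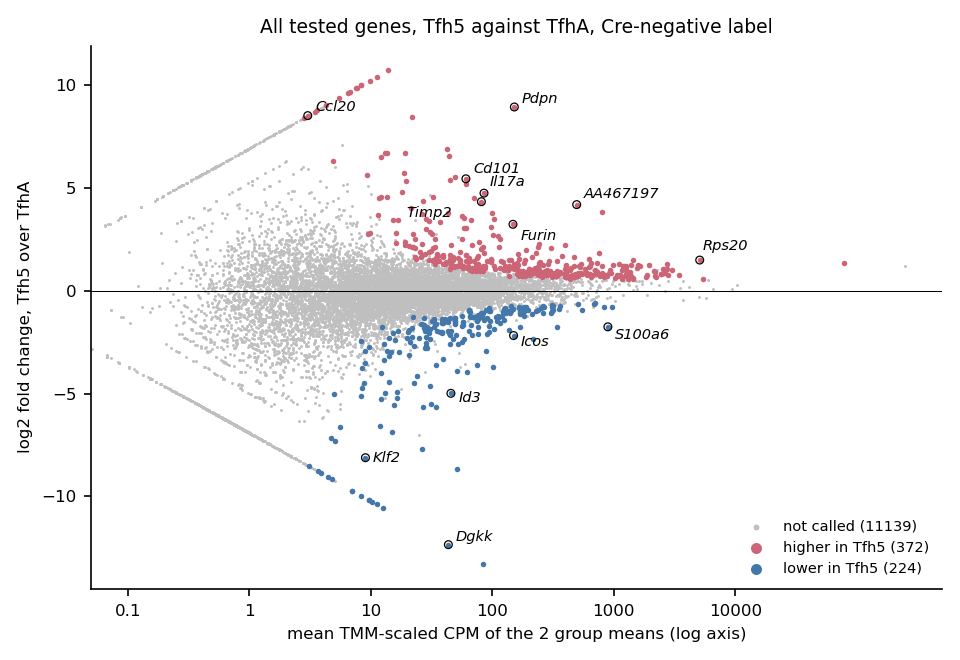
Log2 fold change (Tfh5 over TfhA, vertical axis) against the mean level in TMM-scaled CPM (horizontal log axis) for the 11735 tested genes of libraries labelled Cre-negative, with the 372 called genes higher in Tfh5 in red and the 224 lower in blue. The straight edges are genes at 0 in one group, whose fitted fold changes depend on the prior count and are no bound, and the genes that fell reach further from 0 than most that rose.

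Genes of the Th17 program rose more often than they fell. With TMM factors and all 18 libraries, counts of this and later lists stand beside 3.17% higher and 1.91% lower of all tested genes. Counts from another fit or comparison stand beside the calls of that fit or comparison. Plain library size called 143 higher and 810 lower of all 11735 genes. DESeq2 called 486 and 369, and limma-voom 456 and 419. Of 20 tested members of the Th17 list, 11 were higher and 2 were lower in Tfh5, and their median log2 fold change was 2.75. Leaving out 1 library at a time gave 8 to 10 higher and 1 or 2 lower, with 1 lower without Tfh5 replicate 2. The cytokine gene Il17a rose from a mean of 6.2 CPM to 165. Promoters of 4 of these genes are printed first. Of these, 3 belong to secreted products of Th17 cells that rose from low levels, and Furin encodes a protease that cuts the precursor of TGF-β. Each line gives the 250 bases before the first listed start of the gene, as RefSeq lists it on GRCm38.p6, the assembly that mm10 is made from. Capitals mark AGGTCA, a core site of nuclear receptors, TGANTCA, a site of AP-1 factors, or CAGACA, a SMAD-binding element, on either strand.
Il17a (chr1:20730655-20730904, plus strand): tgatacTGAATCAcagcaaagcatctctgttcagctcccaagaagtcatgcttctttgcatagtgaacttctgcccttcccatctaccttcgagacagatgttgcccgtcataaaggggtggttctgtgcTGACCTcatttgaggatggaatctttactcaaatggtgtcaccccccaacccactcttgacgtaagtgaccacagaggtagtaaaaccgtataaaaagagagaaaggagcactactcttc
Il17f (chr1:20784271-20784520, minus strand): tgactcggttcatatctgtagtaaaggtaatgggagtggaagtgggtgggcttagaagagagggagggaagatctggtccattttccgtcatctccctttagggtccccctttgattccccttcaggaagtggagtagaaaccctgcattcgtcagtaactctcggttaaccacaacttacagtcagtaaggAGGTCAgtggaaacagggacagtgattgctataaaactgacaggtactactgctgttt
Ccl20 (chr1:83116516-83116765, plus strand): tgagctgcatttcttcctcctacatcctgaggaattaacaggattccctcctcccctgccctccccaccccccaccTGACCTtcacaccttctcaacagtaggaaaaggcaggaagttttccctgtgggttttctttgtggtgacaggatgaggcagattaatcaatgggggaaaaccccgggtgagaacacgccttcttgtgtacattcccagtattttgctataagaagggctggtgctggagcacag
Furin (chr7:80405437-80405686, minus strand): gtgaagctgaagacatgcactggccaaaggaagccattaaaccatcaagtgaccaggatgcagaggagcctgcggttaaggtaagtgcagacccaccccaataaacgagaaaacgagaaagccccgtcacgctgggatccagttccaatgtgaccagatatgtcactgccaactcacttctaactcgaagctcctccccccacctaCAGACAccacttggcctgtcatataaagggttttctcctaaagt

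The window printed for Il17f lies inside the span given for that gene below, as its first listed start is not the outer end of that span. The AGGTCA match begins 120 bases before the start of Il17a, 58 before that of Il17f and 174 before that of Ccl20. CAGACA begins 44 bases before the start of Furin, and the TGANTCA match of Il17a begins 244 bases before it. Of the 9011 tested genes with such a window, 10.4% held AGGTCA, 13% held CAGACA and 4.11% held TGANTCA. Among the 247 genes with a window that rose, the shares were 10.9%, 14.2% and 8.91%, and among the 175 that fell they were 8%, 9.71% and 6.29%. A match is a description of these letters and not a site.

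Il17a (Entrez identifier 16171, chr1:20730905-20734496) measured 7.69, 5.62 and 5.29 CPM in TfhA replicates 2, 4 and 5, and 125, 202 and 167 CPM in the same order in Tfh5. Every Tfh5 library was far above every TfhA library. The log2 fold change was 4.73 ± 0.33 (SE), with an adjusted p = 2.09e-12 by edgeR's quasi-likelihood test, and the gene passed under all 16 alternative settings. Its neighbour Il17f (chr1:20777146-20785274), which encodes the related cytokine IL-17F, measured 0.135, 5.73 and 0.200 CPM in TfhA and 105, 110 and 46.5 CPM in Tfh5. TfhA replicate 4 stood above the other two. Il17f rose by 5.39 ± 1.22 on the log2 scale (edgeR adjusted p = 0.0193), a call that was lost without TfhA replicate 2 (edgeR adjusted p = 0.0694) or 5 (0.0889). Ccl20, the chemokine that attracts CCR6-bearing cells, had 0 counts in TfhA and 120 in Tfh5, which is at least 52.5-fold higher when the TfhA group is given 3 counts in all (edgeR adjusted p = 0.000177). It was low in every Tfh5 library, at 1.17, 8.83 and 8.20 CPM.

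Among membrane and signalling members of the Th17 list, Furin rose from 25, 24.7 and 36.3 CPM to 304, 218 and 280 CPM (log2 fold change 3.22 ± 0.31, edgeR adjusted p = 2.60e-09). Tmem176a and Tmem176b, which encode ion channels of intracellular membranes, were close to 0 in TfhA. Tmem176b measured 0, 1.02 and 1.6 CPM there and 52.2, 107 and 103 CPM in Tfh5, and Tmem176a at most 1.48 CPM in TfhA and 66.9 to 117 CPM in Tfh5. Their log2 fold changes were 6.56 ± 0.66 and 6.88 ± 1.21 (edgeR adjusted p = 1.20e-08 and 0.00180). The pair is transcribed in opposite directions from neighbouring starts, and their bodies overlap, so that their reads cannot be fully separated where counting does not use strand, which no source used here states. Their windows share 155 bases, printed below in capitals within the window of Tmem176a.
Tmem176a (chr6:48841233-48841482, plus strand): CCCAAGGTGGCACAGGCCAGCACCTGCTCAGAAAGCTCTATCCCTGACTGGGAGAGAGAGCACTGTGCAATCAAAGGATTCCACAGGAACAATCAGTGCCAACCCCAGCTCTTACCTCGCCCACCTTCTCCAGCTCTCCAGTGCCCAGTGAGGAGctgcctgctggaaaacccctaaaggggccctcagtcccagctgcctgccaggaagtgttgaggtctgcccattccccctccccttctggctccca

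Ahr, the aryl hydrocarbon receptor, rose from 3.64, 3.27 and 10.3 CPM to 35, 48.4 and 33.0 CPM (log2 fold change 2.75 ± 0.54, edgeR adjusted p = 0.000930). Ccr6, the receptor for CCL20, rose from 20.9 CPM ± 6.29 (SD, n = 3, as for all means below) to 68.9 ± 45.8, and its call was lost without Tfh5 replicate 2 (edgeR adjusted p = 0.142) and under plain library size (0.0660). The transcription factor genes Rora and Batf did not pass the test. Rora measured 5.84 to 48.1 CPM in Tfh5 and 0 to 5.69 in TfhA (edgeR adjusted p = 0.342). Batf averaged 85.1 and 140 CPM (edgeR adjusted p = 0.134), and Il23r, a receptor chain for IL-23, 11.3 and 12.3 CPM (edgeR adjusted p = 0.986). The 2 members that fell, named after their values were seen, were the decoy receptor gene Il1r2, from 31.8 to 0.994 CPM (log2 fold change -4.94 ± 1.16, edgeR adjusted p = 0.00859), and the cytokine gene Lif, with 263.5 counts in TfhA and 1 in Tfh5 (edgeR adjusted p = 0.0105, and 0.0506 without Tfh5 replicate 2). Il22, a further Th17 cytokine, was too low to be tested, with 37 counts in TfhA and 0 in Tfh5.

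**Figure D2:**
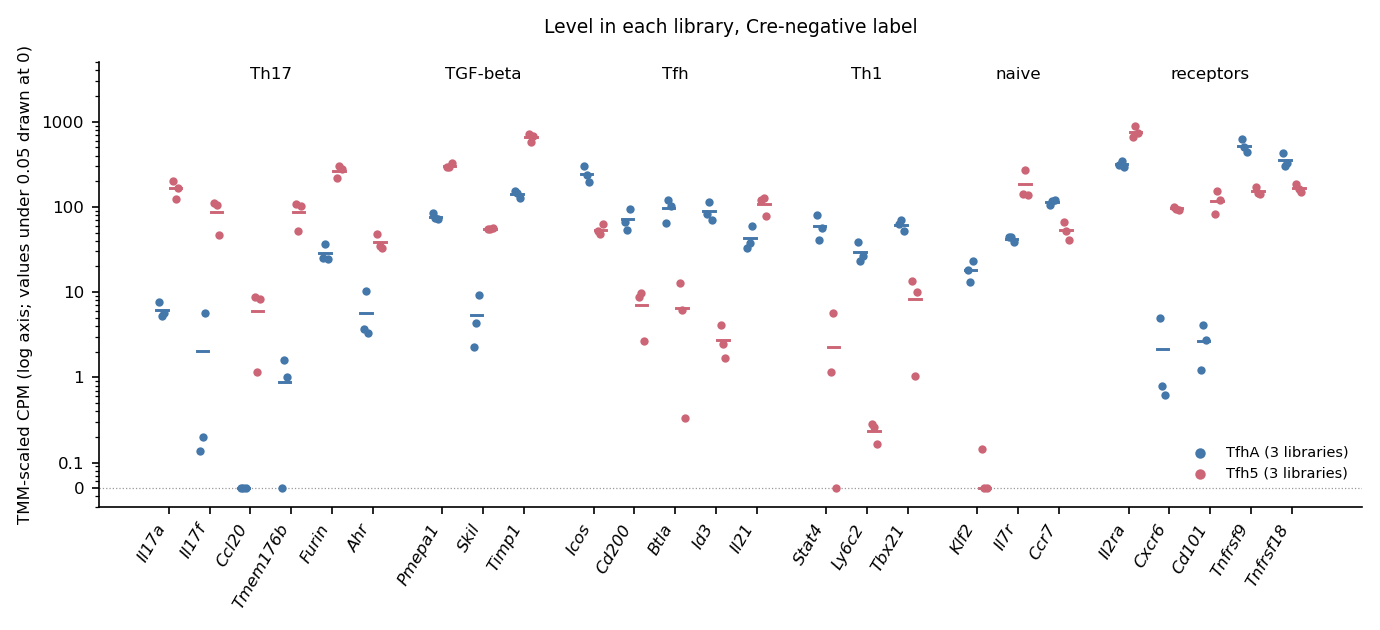
Level of 25 named genes in each of the 6 libraries labelled Cre-negative, in TMM-scaled CPM on a log axis with values under 0.05 drawn at 0, with TfhA in blue, Tfh5 in red and the group mean as a bar. Th17 genes sit higher in Tfh5, whereas 4 of the 5 Tfh genes and the 3 Th1 genes sit lower. The 3 libraries of each group do not overlap for any gene shown.

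A pair of feedback genes of the TGF-β pathway rose. TGF-β receptors signal through SMAD proteins, which switch on inhibitors of the same pathway. Of 20 tested receptors, SMADs and feedback genes 2 were higher and none lower, with a median log2 fold change of 0.61, which was 0.08 under plain library size. Pmepa1, which encodes a membrane protein that holds back SMAD activation, measured 83.8, 71.6 and 74.4 CPM in TfhA and 292, 292 and 324 CPM in Tfh5 (log2 fold change 1.98 ± 0.24, edgeR adjusted p = 3.29e-07). Skil, which encodes the SMAD corepressor SnoN, went from 2.29, 9.31 and 4.4 CPM to 54.8, 55.6 and 55.9 CPM (log2 fold change 3.37 ± 0.54, edgeR adjusted p = 4.32e-05). The 3 Tfh5 values of Skil were nearly equal, although 5 of its 6 values were not whole counts. Ldlrad4, a paralogue of Pmepa1, averaged 2.42 CPM ± 3.22 and 59.4 ± 16.7 without overlap (edgeR adjusted p = 0.0786), and passed with DESeq2 (adjusted p = 0.0122). The inhibitory SMAD gene Smad7 averaged 3.56 and 8.62 CPM (edgeR adjusted p = 0.669).

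Other T cell genes known to respond to TGF-β split, with 2 of 14 tested members higher and 1 lower (median log2 fold change -0.39). Timp1, a secreted inhibitor of metalloproteinases, rose from 152, 127 and 144 CPM to 578, 710 and 671 CPM (log2 fold change 2.21 ± 0.22, edgeR adjusted p = 6.03e-09). Nt5e, which encodes the adenosine-producing ectoenzyme CD73, averaged 2.68 CPM ± 1.25 and 62.5 ± 24.6 (edgeR adjusted p = 0.0158). Its call was lost without TfhA replicate 2, 4 or 5 (edgeR adjusted p = 0.0787, 0.0605 and 0.108), which left 1 member higher. Itgae, the integrin chain CD103, averaged 0.716 and 3.76 CPM (edgeR adjusted p = 0.759).

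Among all tested genes 1.91% were lower and 3.17% higher. Of 22 tested members of the Tfh program 6 were lower and 1 was higher, 7 had a positive fold change, and the median log2 fold change was -1.46. Without TfhA replicate 2 the counts were 4 and 2. Icos measured 304, 198 and 234 CPM in TfhA and 47.7, 52.0 and 62.2 CPM in Tfh5, a log2 fold change of -2.18 ± 0.25 (edgeR adjusted p = 1.16e-07). The inhibitory ligand gene Cd200 fell from 66.5, 95.5 and 53.8 CPM to 9.72, 8.83 and 2.68 CPM (-3.33 ± 0.45, edgeR adjusted p = 2.66e-06). Btla, an inhibitory receptor, fell from 64.5, 102 and 122 CPM to 6.22, 12.8 and 0.335 CPM (-3.88 ± 0.72, edgeR adjusted p = 0.00208). Tfh5 replicate 5 was lowest for both. Id3, an inhibitor of E proteins, had the largest fall among the list members that had counts in all 6 libraries and passed the test. It measured 81.9, 69.8 and 114 CPM in TfhA and 2.46, 4.13 and 1.67 CPM in Tfh5 (-4.99 ± 0.49, edgeR adjusted p = 4.20e-09).

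Il21, a cytokine of both Tfh and Th17 cells, was the member that rose. It measured 32.9, 60.3 and 37.7 CPM in TfhA and 126, 121 and 77.3 CPM in Tfh5 (log2 fold change 1.31 ± 0.29, edgeR adjusted p = 0.00280), a call lost when plain library size was used (edgeR adjusted p = 0.171). The best known Tfh markers gave no call. Pdcd1, which encodes PD-1, averaged 29.3 CPM ± 13.5 and 44.5 ± 15.5 (edgeR adjusted p = 0.50), and the B-follicle homing receptor gene Cxcr5 0.953 and 2.53 CPM (edgeR adjusted p = 0.817). Bcl6, the defining transcription factor gene of Tfh cells, was listed at 0 in all 6 libraries, as were the cytokine genes Il4 and Ifng, and Prdm1, the known antagonist of Bcl6, was at 0 after rounding.

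Of 19 tested members of the Th1 program 4 fell and none rose, with a median log2 fold change of -1.86. limma-voom called 8 lower. Stat4, which transmits IL-12 signals, measured 79.6, 57.2 and 41.1 CPM in TfhA and 5.7, 1.14 and 0 CPM in Tfh5 (log2 fold change -4.65 ± 0.69, edgeR adjusted p = 2.84e-05). The surface protein gene Ly6c2 fell from 29.5 CPM ± 7.94 to 0.237 ± 0.0619 (edgeR adjusted p = 0.000220). 5 of its 6 values were not whole counts, so reads may be shared with its close relatives. The cytotoxic granule genes Gzmb and Nkg7 averaged 102 and 187 CPM in TfhA and 0.216 and 14.3 CPM in Tfh5 (edgeR adjusted p = 0.0133 and 0.0292). Without Tfh5 replicate 5 both calls were lost (edgeR adjusted p = 0.0665 and 0.134), and the list had 2 members lower without Tfh5 replicate 4 or 5. Tbx21, which encodes T-bet, measured 62.8, 52.6 and 70.2 CPM in TfhA and 1.04, 13.5 and 10 CPM in Tfh5. Its groups did not overlap, yet it missed the threshold (-2.92 ± 0.93, edgeR adjusted p = 0.0799) and passed with DESeq2 (adjusted p = 0.0161) and limma-voom (adjusted p = 0.00916).

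Interferon response and antigen processing genes were mostly lower, with 7 of 38 tested members called lower, 1 higher and 35 with a negative fold change (median log2 fold change -0.84). Psmb8, a subunit of the immunoproteasome that cuts peptides for MHC class I, measured 413, 413 and 416 CPM in TfhA and 151, 207 and 221 CPM in Tfh5 (log2 fold change -1.10 ± 0.21, edgeR adjusted p = 0.000549). Nlrc5, the transactivator of MHC class I genes, fell from 22.7 CPM ± 7.96 to 1.38 ± 1.35 (edgeR adjusted p = 0.00541), and the surface marker Ly6a from 1226 CPM to 717 (log2 fold change -0.77 ± 0.17, edgeR adjusted p = 0.00234). Both calls were lost in a fit of the 6 libraries alone with the replicate number as a block (edgeR adjusted p = 0.0615 and 0.104). Irf8, a transcription factor, was the member that rose, from 15.8, 14.9 and 18.4 CPM to 79.3, 67.5 and 79.1 CPM (2.20 ± 0.46, edgeR adjusted p = 0.00183). The count of 7 was 3 without TfhA replicate 4 or without Tfh5 replicate 5, 4 in the 6 libraries alone with a replicate block, and 16 under plain library size.

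**Figure D3:**
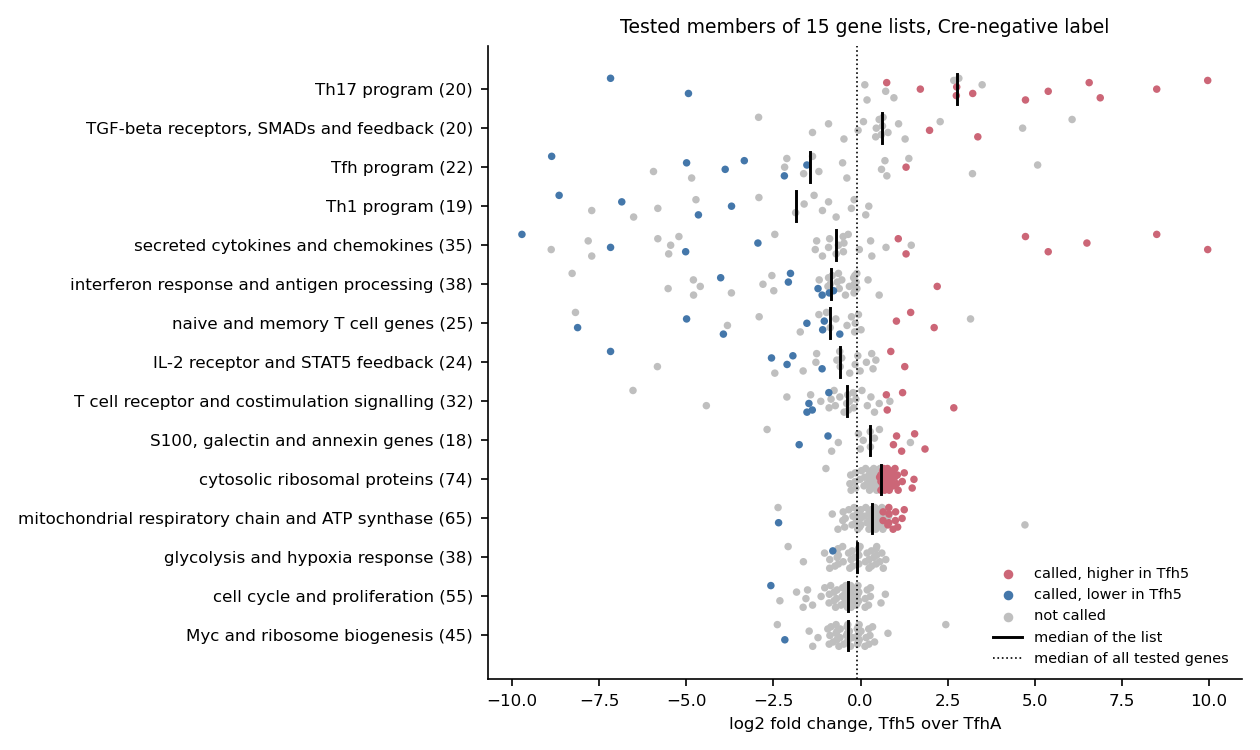
Log2 fold change (Tfh5 over TfhA, horizontal axis) of each tested member of 15 gene lists, with the number tested in brackets, in libraries labelled Cre-negative. Called members are red or blue, black bars are list medians and the dotted line is the median of all tested genes at -0.09. The Th17 median lies at 2.75, the Tfh and Th1 medians at -1.46 and -1.86, and the glycolysis median at -0.11.

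Secreted cytokines and chemokines changed in both directions, with 7 of 35 tested members higher and 4 lower (median log2 fold change -0.70). The count of 7 fell to 3 without TfhA replicate 5, and the count of 4 to 2 without Tfh5 replicate 2, while limma-voom called 9 lower. Besides Il17a, Il17f, Ccl20 and Il21, Il10 rose, a regulatory cytokine gene with 0.810, 0 and 0 CPM in TfhA and 6.22, 42.3 and 23.6 CPM in Tfh5. Its adjusted p was 0.00685 with edgeR and 0.0504 without TfhA replicate 5. Il3, a growth factor of haematopoietic cells, had 368 counts in TfhA and 0 in Tfh5, at least 93.4-fold lower (edgeR adjusted p = 0.00805). Il2 averaged 1.58 and 0.648 CPM (edgeR adjusted p = 0.924).

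Th2 genes showed 1 of 9 tested members higher, Il10, and none lower, and no member was called without TfhA replicate 5. Gata3, the Th2 transcription factor gene, averaged 14.6 CPM ± 4.52 and 2.51 ± 3.79 (edgeR adjusted p = 0.407). Of 15 tested genes of regulatory T cells 5 were higher and 2 lower, with a median log2 fold change of 0.01, and 3 were higher without TfhA replicate 5. The actin-capping gene Capg rose from 99.1 CPM ± 20.1 to 357 ± 124, and Foxp3, the defining factor gene of these cells, was untested at 0 counts in TfhA and 6.17 in Tfh5.

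Genes of naive and memory T cells fell more often than they rose. Of 25 tested members 7 were lower and 3 higher (median log2 fold change -0.87), and 4 were lower without TfhA replicate 5 or without Tfh5 replicate 5. The transcription factor gene Klf2, which maintains homing receptors, held 490.5 counts in TfhA and 1 in Tfh5, a ratio of 373 with a 95% counting interval of 66.7 to 14767 (edgeR adjusted p = 8.46e-07). Ccr7, which encodes a lymph node homing receptor, fell less, from 113 CPM ± 7.83 to 53.4 ± 13.2 (edgeR adjusted p = 0.00425, and 0.0632 in the 6 libraries alone with the replicate number as a block). Il7r, the IL-7 receptor of long-lived T cells, rose instead, from 44.3, 39.1 and 44.4 CPM to 273, 141 and 139 CPM (log2 fold change 2.11 ± 0.33, edgeR adjusted p = 3.11e-05).

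Of 26 tested chemokine receptors and trafficking genes 3 were higher and 4 lower (median log2 fold change -0.21). Plain library size gave 2 higher and 8 lower, and the 6 libraries alone with a replicate block 2 and 2. Cxcr6, a receptor of tissue-homing effector cells, rose from 4.99, 0.614 and 0.799 CPM to 95.2, 99.7 and 92.7 CPM (log2 fold change 5.53 ± 0.54, edgeR adjusted p = 4.20e-09). Lpar6, a receptor for lysophosphatidic acid, rose from 8.32 CPM ± 0.392 to 35.8 ± 11.3 (edgeR adjusted p = 0.000870).

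Il2ra, the high-affinity chain of the IL-2 receptor, rose from 311, 296 and 345 CPM to 887, 660 and 746 CPM (log2 fold change 1.27 ± 0.18, edgeR adjusted p = 7.88e-06). In the list of IL-2 receptor and STAT5 feedback genes, which holds Il2ra, 2 of 24 tested members were higher and 5 lower, among them the survival gene Bcl2 (123 to 28.6 CPM, edgeR adjusted p = 0.000524), the kinase gene Pim2 (48.4 to 8.24 CPM, edgeR adjusted p = 0.00148) and Socs1, a brake on cytokine signalling (73.1 to 19.1 CPM, edgeR adjusted p = 0.00399). Plain library size gave 1 higher and 10 lower in that list. Of 17 tested TNF receptor family costimulators 1 was higher and 3 lower, with none higher under plain library size or without TfhA replicate 5. Tnfrsf25, which encodes the death receptor DR3, rose from 17.1 to 48.0 CPM (edgeR adjusted p = 0.0179, and 0.0863 and 0.0651 without TfhA replicates 5 and 4). The costimulatory receptor genes Tnfrsf9 and Tnfrsf18, which encode 4-1BB and GITR, fell. Tnfrsf9 measured 624, 436 and 505 CPM in TfhA and 147, 173 and 142 CPM in Tfh5 (-1.76 ± 0.23, edgeR adjusted p = 1.18e-06), and Tnfrsf18 fell from 356 CPM ± 69 to 166 ± 18.8 (edgeR adjusted p = 0.000778).

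Of 13 tested coinhibitory receptors 3 were higher and 2 lower. Cd101, an inhibitory surface receptor, rose from 1.21, 2.76 and 4.10 CPM to 153, 82.1 and 121 CPM (log2 fold change 5.43 ± 0.45, edgeR adjusted p = 9.88e-11). Ctla4, which competes for CD80 and CD86, rose from 77.3 CPM ± 20.6 to 176 ± 12.1 (1.19 ± 0.26, edgeR adjusted p = 0.00287) and lost its call under plain library size (edgeR adjusted p = 0.208). It lies 44941 bases from Icos on chromosome 1, and the pair moved in opposite directions.

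Of 32 tested signalling genes around the T cell receptor 4 were higher and 4 lower. Plain library size gave 2 and 11, DESeq2 4 and 7, and the 6 libraries alone with a replicate block 2 and 2. Without TfhA replicate 2 the counts were 2 and 2, and without TfhA replicate 5 or 4 the lower count was 2 or 1. Cd4 itself fell from 161, 137 and 183 CPM to 49.4, 65 and 57.9 CPM (log2 fold change -1.48 ± 0.23, edgeR adjusted p = 2.84e-05), while Thy1, another T cell surface gene, rose from 138 CPM ± 3.72 to 358 ± 65.5 (edgeR adjusted p = 5.97e-05). The adhesion receptor gene Cd2 rose from 383 CPM ± 17.1 to 885 ± 253 (edgeR adjusted p = 2.25e-05). Ubash3b, a phosphatase that dampens T cell receptor signals, rose from 27.3 CPM ± 2.69 to 174 ± 23.0 (log2 fold change 2.68 ± 0.34, edgeR adjusted p = 8.45e-07). The phosphatase gene Dusp2 fell from 163 CPM ± 21.0 to 44.6 ± 25.9 (edgeR adjusted p = 0.000114).

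The genes with the largest folds included several that are not in these lists. Pdpn, which encodes the membrane glycoprotein podoplanin, measured 0, 0.205 and 1.5 CPM in TfhA and 283, 309 and 318 CPM in Tfh5 (log2 fold change 8.92 ± 1.08, edgeR adjusted p = 0.000196). Timp2, a relative of Timp1, rose from 7.02, 10 and 6.19 CPM to 166, 145 and 154 CPM (4.32 ± 0.32, edgeR adjusted p = 7.90e-12). AA467197 had the smallest adjusted p among the genes named here (2.83e-13 with edgeR), with 70.7, 41.1 and 44.0 CPM in TfhA and 780, 910 and 1124 CPM in Tfh5. Cd86, a ligand for CD28 and CTLA-4 best known from antigen-presenting cells, rose from at most 0.810 CPM to 22.4 to 48.9 CPM (6.70 ± 0.77, edgeR adjusted p = 2.15e-07). Cd38, an ectoenzyme, had 0 counts in TfhA and 352 in Tfh5, at least 154-fold higher (edgeR adjusted p = 0.00148). Nipal1, a magnesium transporter gene, had 3.33 counts in TfhA and 913.67 in Tfh5 (edgeR adjusted p = 5.79e-08).

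In the other direction, Dgkk, a diacylglycerol kinase gene, had 2422 counts in TfhA and 0.25 in Tfh5 (edgeR adjusted p = 1.69e-09). Adora2a, an adenosine receptor gene, had 466 counts and 0, at least 118-fold lower (edgeR adjusted p = 2.42e-05). Moxd1 and the serine protease inhibitor gene Serpinb9b were at 0 in Tfh5 too, at least 169-fold and 152-fold lower (edgeR adjusted p = 0.00626 and 0.000250). Among S100, galectin and annexin genes 5 of 18 were higher and 2 lower, with a median log2 fold change of 0.28. Plain library size gave 2 and 4 with a median of -0.26, and without Tfh5 replicate 5 the counts were 3 and 3. The calcium-binding protein gene S100a6 fell from 1380.1 CPM ± 79.8 to 407 ± 34.1 (log2 fold change -1.76 ± 0.20, edgeR adjusted p = 6.83e-08). The galectin genes Lgals1 and Lgals3 rose from 1685 and 84.3 CPM to 3452 and 247 CPM (edgeR adjusted p = 0.000138 and 0.000549), and Lgals1 missed the threshold under plain library size (0.0511). The count of 5 fell to 3 without TfhA replicate 4 or 5 or Tfh5 replicate 4 or 5, and the count of 2 to 1 without TfhA replicate 2 or 5 or Tfh5 replicate 2 or 4.

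Ribosomal protein genes held the most calls of the lists used, and the number of their calls depended on the scaling. Under TMM factors 35 of 74 tested members were higher and none was lower, with a median log2 fold change of 0.59. Under plain library size 6 were higher and 1 lower with a median of 0.02. The median over all tested genes moved down too, from -0.09 to -0.64. Rps20, a protein of the small subunit, measured 2885, 2697 and 2465 CPM in TfhA and 8874, 5602 and 8011 CPM in Tfh5 (1.48 ± 0.16, edgeR adjusted p = 5.04e-08) and passed under both scalings. All 6 values of Rps20 were fractional, and processed copies of ribosomal protein genes are common in the genome. The 35 fell to 21 without TfhA replicate 5 and to 23 without Tfh5 replicate 5. In the 6 libraries alone with a replicate block 10 of 72 tested members were higher. Pseudogenes made up 42 of the 372 genes that rose (11.3%), 1 of the 224 that fell (0.446%) and 2.45% of all tested genes. The share of the 2 most abundant identifiers, higher in every Tfh5 library than in any TfhA library, moved with these groups. A TMM fit that left both identifiers out gave 35 ribosomal protein genes higher and 0 lower, with a median log2 fold change of 0.59. Beyond that fit, the part of the share in these groups was not tested.

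Genes of the mitochondrial respiratory chain and ATP synthase followed the same pattern, with 12 of 65 tested members higher, 1 lower and a median log2 fold change of 0.34 under TMM factors. Plain library size gave 1 higher and 6 lower with a median of -0.21. The TMM fit without the 2 most abundant identifiers gave 13 higher and 1 lower with a median of 0.35. Without TfhA replicate 2, TfhA replicate 5 or Tfh5 replicate 5 the count higher was 7, 5 or 6, and it was 4 of 63 in the 6 libraries alone with a replicate block. Atp5k, an ATP synthase subunit, rose from 239, 233 and 247 CPM to 682, 480 and 554 CPM (1.25 ± 0.19, edgeR adjusted p = 2.36e-05), and Ndufa4, a cytochrome oxidase subunit, fell from 78.4, 99.3 and 61.5 CPM to 14.4, 15.1 and 17.4 CPM (-2.35 ± 0.36, edgeR adjusted p = 2.74e-05). Both held under plain library size, and most of their values were fractional. Genes that rose also had shorter transcripts. The median of the longest GENCODE M21 transcript was 2598 bases for 251 protein-coding genes that rose, 3527 for 217 that fell and 3430 for all 10303 tested, ribosomal protein and respiratory chain symbols left out.

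**Figure D4:**
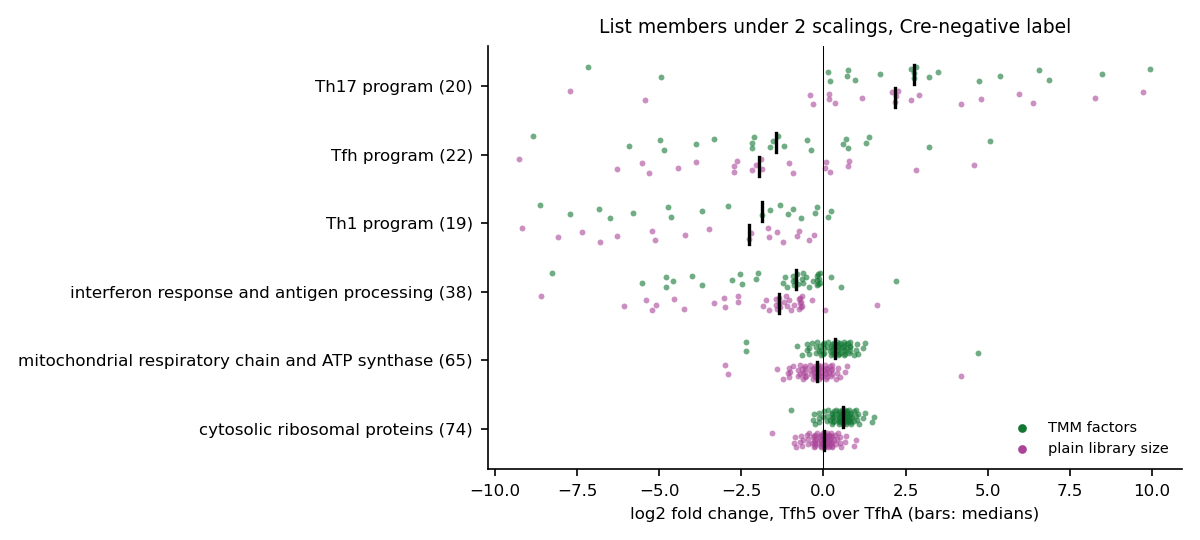
Log2 fold change (Tfh5 over TfhA, horizontal axis) of the tested members of 6 gene lists with TMM factors (green) and with plain library size (purple), in libraries labelled Cre-negative, with medians as black bars. The ribosomal median moves from 0.59 to 0.02 and the respiratory chain median from 0.34 to -0.21, while the Th17 median stays positive at 2.75 and 2.19 and the Tfh and Th1 medians stay negative. The median of all tested genes, not drawn, moves from -0.09 to -0.64.

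The calls for genes of growth and division depended on the scaling. Under TMM factors 5.08% of all tested genes were called, 3.17% higher and 1.91% lower. The shares called were 1.82% of cell cycle genes, 2.22% of ribosome biogenesis genes and 2.63% of glycolysis genes. For cholesterol and fatty acid synthesis the share was 10.5%. With TMM factors, of 55 tested cell cycle genes 1 was lower and none higher, with 47 negative fold changes and a median log2 fold change of -0.36. That gene was Mcm4, a subunit of the replicative helicase, which fell from 77.6 CPM ± 8.6 to 13 ± 5.57 (-2.57 ± 0.51, edgeR adjusted p = 0.00102). Among 45 Myc targets and ribosome biogenesis genes the one called was Gar1, of the small nucleolar ribonucleoproteins, lower at 16.3 against 73.1 CPM (edgeR adjusted p = 0.00916). Under plain library size 16 cell cycle genes, 10 ribosome biogenesis genes and 7 glycolysis genes were lower, with a median over all tested genes of -0.64. That scaling called 810 of all 11735 tested genes lower. limma-voom gave 6 cell cycle genes lower. Without Tfh5 replicate 4, 2 or 5 the cell cycle count was 2, 2 or 3 lower and the ribosome biogenesis count 3, 2 or 2. In glycolysis and the hypoxia response 1 of 38 tested members was lower, Hk2, which encodes the first enzyme of glycolysis (232 CPM ± 2.43 against 134 ± 5.99, edgeR adjusted p = 0.0171), and it lost its call without any single TfhA library or without Tfh5 replicate 5. Without Tfh5 replicate 4 or 5, 1 member was called higher. limma-voom called 1 member higher and 2 lower. DESeq2, and a filter at a mean of at least 10 CPM, each called 2 higher and 2 lower. Of 38 tested cholesterol and fatty acid synthesis genes 2 were higher and 2 lower, against 1 and 4 under plain library size. Sc5d, a late enzyme of sterol synthesis, rose from 36.0 to 115 CPM (edgeR adjusted p = 0.000138). Hmgcs1, an early enzyme of the pathway, fell from 243 to 121 CPM (edgeR adjusted p = 0.00975, and 0.0727 without TfhA replicate 5 or without Tfh5 replicate 4). None of 24 tested heat shock and unfolded protein response genes was called.

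No marker on the lists for other cell types passed edgeR's test. Of 16 B cell markers 5 were at 0 in all 6 libraries after rounding, Cd79a, Cd79b, Ms4a1 and Pax5 among them, and the summed level was 85.7 to 99.8 CPM in TfhA and 56.9 to 92.2 in Tfh5, mostly from H2-Ab1. Of 18 myeloid and dendritic markers 9 were at 0 throughout, including Lyz2 and Adgre1, and the sums were 37.8 to 68.9 and 53.6 to 130 CPM, mostly from Ctss. All 4 tested myeloid markers had a positive fold change. Itgax and Xcr1 were at 0 in TfhA and lay wholly above it in Tfh5, at means of 5.78 and 6.18 CPM (edgeR adjusted p = 0.186 and 0.116), and 1 of the 4 passed with DESeq2 and 2 with limma-voom. CD8 T cell markers summed to 34.6 to 53 and 30.8 to 46.5 CPM, with Cd8a at means of 0 and 0.855 CPM. NK and innate lymphoid markers summed to 4.70 to 28.6 and 1.67 to 8.69 CPM with Ncr1 at 0, and γδ T cell markers to at most 5.7 CPM in any library. The ranges of the 2 groups overlapped for each of these lists. No list of stromal markers was used. The matrix genes Dcn and Lum, known from fibroblasts, fell from means of 14.1 and 32.0 CPM to 0 and 0.836 CPM (edgeR adjusted p = 0.0233 and 0.0356), and both lost their calls whichever of the 6 libraries was left out. The part of other cells in the results was not tested. In bulk samples, fewer cells of a type and less RNA per cell cannot be told apart.

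The same treatments were compared in libraries labelled Cre-positive, which share no library with the comparison above. There 633 genes were called, 281 higher (2.39%) and 352 lower (3.00%), together 5.39% of those tested. Of the genes higher in Tfh5, 122 were higher with both labels, which is 32.8% of the Cre-negative list and 43.4% of the other. Of those lower, 76 were shared, 33.9% and 21.6%. Whether an effect differs between the labels was tested with the interaction of genotype label and treatment. It was called for 140 genes (1.19%), 101 (0.861%) with a higher and 39 (0.332%) with a lower Tfh5 effect in the libraries labelled Cre-negative. This number dropped to 81 without Cre-positive TfhA replicate 1, 87 without Cre-negative TfhA replicate 5 and 88 in a fit of these 12 libraries alone. Since Maf was present with the label Cre-positive, directions between the labels are given as the labels stand.

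The Th17 genes Il17a and Furin rose with both labels. Their differences between labels were 0.48 ± 0.41 and 0.76 ± 0.40 on the log2 scale (edgeR adjusted p = 0.787 and 0.496), and those of Pmepa1 and Icos were -0.43 ± 0.33 and -0.88 ± 0.34 (edgeR adjusted p = 0.729 and 0.259). Lgals3 had the smallest p of the interaction. It rose from 84.3 to 247 CPM with the label Cre-negative and fell from 152 to 10.8 CPM with the label Cre-positive, a difference of 5.35 ± 0.44 (edgeR adjusted p = 3.71e-10). Il2ra averaged 317 CPM in TfhA with both labels, and in Tfh5 764 and 239 CPM with the labels Cre-negative and Cre-positive (difference 1.68 ± 0.25, edgeR adjusted p = 8.37e-05). Timp1 was at 653 and 222 CPM in Tfh5 from 141 and 201 CPM in TfhA (2.06 ± 0.30, edgeR adjusted p = 5.40e-05). Id3 fell by more with the label Cre-negative, to 2.76 CPM against 16.3 (-3.11 ± 0.60, edgeR adjusted p = 0.00316).

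Genes of glycolysis and the hypoxia response showed a difference between the labels. Of 38 tested members 11 had a higher Tfh5 effect with the label Cre-negative and none a lower one. Among all tested genes the shares were 0.861% and 0.332%. Over all genes the direction depended on the scaling, with 101 higher and 39 lower under TMM factors and 44 and 80 under plain library size. The counts in this paragraph, for this list and for the S100, galectin and annexin list, were not repeated under other settings. With the label Cre-positive 20 members of the glycolysis and hypoxia list fell in Tfh5, beside 3.00% of all tested genes. With the label Cre-negative 1 member fell. Fam162a and Hilpda, both known as hypoxia-induced, averaged 383 and 562 CPM and 213 and 205 CPM in TfhA and Tfh5 with the label Cre-negative, neither called. With the label Cre-positive they fell from 508 to 174 CPM and from 325 to 48.5 CPM (interaction 2.10 ± 0.25 and 2.69 ± 0.34, edgeR adjusted p = 1.28e-06 and 4.32e-06). The metallothionein gene Mt1 fell from 630 to 126 CPM with the label Cre-positive and averaged 378 and 565 CPM with the label Cre-negative (2.89 ± 0.28, edgeR adjusted p = 1.72e-08). In the S100, galectin and annexin list 8 of 18 tested members had a higher effect with the label Cre-negative, S100a6 among them, which fell with both labels (2.53 ± 0.28, edgeR adjusted p = 2.40e-07).

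**Figure D5:**
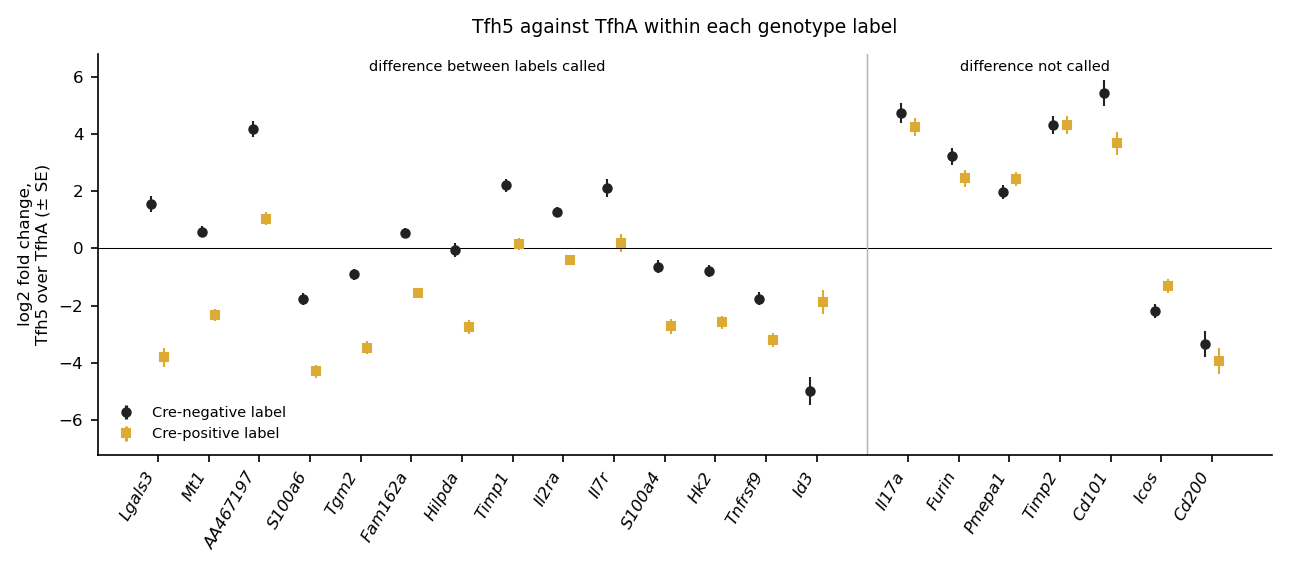
Log2 fold change ± SE (Tfh5 over TfhA, vertical axis) of 21 genes in libraries labelled Cre-negative (black circles) and Cre-positive (yellow squares). For the 14 genes on the left the difference between labels was called, from Lgals3 (5.35) to Id3 (-3.11), and for the 7 on the right it was not.

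Tfh1 was the third treatment, and its comparison with TfhA uses the same 3 TfhA libraries, so the values stand side by side only. Against TfhA, Tfh1 had 262 called genes (2.23%), 176 higher and 86 lower (0.733%). Il17a averaged 111 CPM in Tfh1 against 165 in Tfh5, Icos 74.2 against 54.0 and Ly6a 744 against 717. Tested directly, Tfh5 differed from Tfh1 for 65 genes (0.554%), 32 higher (0.273%) and 33 lower (0.281%). Fewer passed, 25, 35 and 38 without Tfh1 replicates 5, 2 and 4, and 33 without Tfh5 replicate 5. Timp2 had the smallest p of this comparison, with 28.3 CPM in Tfh1 and 155 in Tfh5 (log2 fold change 2.45 ± 0.29, edgeR adjusted p = 8.53e-06). AA467197 (272 and 938 CPM), Pmepa1 (148 and 302 CPM) and Timp1 (353 and 653 CPM) were also higher in Tfh5 (edgeR adjusted p = 3.79e-05, 0.0264 and 0.0399).

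Id3 was lower in Tfh5 than in Tfh1, at 2.76 against 20.8 CPM (-2.90 ± 0.46, edgeR adjusted p = 0.000388). The costimulatory receptor genes Tnfrsf9 (500 and 154 CPM) and Tnfrsf18 (383 and 166 CPM) were lower too (edgeR adjusted p = 3.79e-05 and 0.00187), as was Ccr7 (148 and 53.4 CPM, edgeR adjusted p = 0.000978). Cd4 was at 118 CPM in Tfh1 against 57.4 in Tfh5 (edgeR adjusted p = 0.0206). Il17a and Icos did not pass the test between Tfh5 and Tfh1 (0.56 ± 0.28 and -0.46 ± 0.24, edgeR adjusted p = 0.483 and 0.507).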

How the data were processed

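Gene tables of all 18 libraries were used. Reads were aligned with STAR 2.7.2b and counted with featureCounts 1.6.4 on mm10, per the submitters' processing notes. The sources used here do not state how strand and reads matching several genes were handled. The deposited values are estimated counts, since some genes hold parts of a read, and they were rounded to whole numbers where whole counts had been planned for. Of 27179 listed identifiers 25275 matched a symbol in the RefSeq table.

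From these counts edgeR 4.0.16 (R 4.3.3) fitted the 6 groups of the series together with TMM factors, and the quasi-likelihood test was run on the 11735 genes left by edgeR's filter on low counts, with Benjamini-Hochberg adjustment and a threshold of 0.05. The TMM factors of the 6 libraries were 0.8361 to 1.389. The common biological coefficient of variation was 0.814, with 12 residual degrees of freedom. CPM use the same factors. A group at 0 was given a floor of 3 counts over the group, and ratios of few counts an exact 95% interval that covers counting error only. DESeq2 1.42.0 and limma 3.58.1 were alternatives, beside other scalings, filters, libraries in the fit, a replicate block and leaving out each library. The fits were tested on simulated data.

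Genes were named by a rule: a panel, the largest changes in fold and in CPM among called genes of at least 10 CPM without overlap, up to 5 members of each of 37 lists by adjusted p, and the smallest p of the interaction and of Tfh5 against Tfh1. The members and lists were chosen with earlier results of these data known. Il1r2, Lif, Trac, Cd3e, Lum and the members named as listed at 0 were added after their values were seen. The lists are described by counts and medians, with no test. Some results are not reported here because their genes are withheld.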

Additional observations from a re-analysis of the deposited data

Results flagged for a closer look

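For 22 named genes the test of the difference between the genotype labels was called, so that the Tfh5 effect with the label Cre-negative minus that with the label Cre-positive stood apart from 0. The values below are these differences on the log2 scale, from edgeR's interaction term, with no explanation given. The Tfh5 effect was higher with the label Cre-negative for the galectin genes Lgals3 (5.35) and Lgals1 (1.11), the calcium-binding protein genes S100a6 (2.53) and S100a4 (2.08), AA467197 (3.13), Mt1 (2.89) and Timp1 (2.06). The same held for the receptor genes Il2ra (1.68), Il7r (1.93) and Tnfrsf9 (1.44), for Bcl2 (2.39) and Ly6a (1.45), and for Hilpda (2.69), Fam162a (2.10), Hk2 (1.79), Tgm2 (2.56) and Atp5k (1.16). It was lower for Id3 (-3.11), Ndufa4 (-2.07) and Aplp2 (-1.49), and for Klf2 (-9.56) and Adora2a (-8.58), whose fitted values depend on the prior count because Tfh5 libraries were at or near 0. Hk2, Bcl2 and Tnfrsf9 fell in Tfh5 with the label Cre-negative, so a higher effect there does not mean a rise.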

How the results depend on the processing

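Of 77 genes checked that passed in Tfh5 against TfhA, 57 passed under each of the 16 alternatives that tested them, 20 lost their call under at least one, and none changed direction. These genes were named partly for a small adjusted p or a large change, so they do not stand for all 596 calls. Of the 596, 366 were also called under plain library size and 358 without TfhA replicate 5. In the 6 libraries alone with a replicate block, which tested 10173 genes, 308 of them were called. Plain library size gave 953 calls (143 higher, 810 lower) against 596 (372 and 224). DESeq2 and limma-voom gave 369 and 419 lower. The 6 libraries alone with a replicate block, chosen after seeing the data, gave 335 (202 and 133). Leaving out each library gave 360 to 555 calls, 233 to 346 higher and 127 to 216 lower, lowest without TfhA replicate 5.

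The interaction (140, 101 and 39) gave 255 with DESeq2 (180 and 75), 235 without a count filter (164 and 71), 88 in its 12 libraries alone (20 lower), and 44 higher and 80 lower under plain library size. Leaving out each library gave 81 to 164, 63 to 120 and 18 to 49. Tfh5 against Tfh1 (65, 32 and 33) gave 211 with DESeq2 (93 and 118), 232 without a count filter (88 and 144), 28 in its own libraries (16 and 12), and 15 higher under plain library size. Leaving out each library gave 25 to 94, 14 to 41 and 11 to 53. The causes were not tested.

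Replicate numbers are shared by the treatments within a genotype label and differ between the labels. Same-numbered TfhA and Tfh5 libraries labelled Cre-negative did not deviate together (r = 0.00978, 0.00509 and 0.0268). With the replicate block 595 genes were called, 553 of them the same, against 596. The block gave 135 and 63 calls for the interaction and for Tfh5 against Tfh1. At 6424874 counts in the shallowest library, genes under a few CPM gave wide errors.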
